A study of Mus musculus with 4 samples.

Results

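The 6 genes described here, *Lyve1*, *Prox1*, *Mmrn1*, *Pdpn*, *Reln* and *Ccl21a*, mark lymphatic endothelial cells (LECs), the cells that line lymphatic vessels. They are 6 of the 46517 genes counted in single wells of mouse ear skin, and they were chosen by their levels and their shared occurrence in wells of these same plates, so those values are given as a description. Adult female C57Bl/6 mice (C57BL/6 J in the study's methods), with no named allele or treatment, gave pools of 6 animals. The labels put their age at 12 to 26 weeks, and the study's methods give a younger range. From these, CD31+/CD45-/Lyve1- cells were sorted from ear dermis to obtain blood vascular endothelial cells (BECs). The cells fell into 1 group of 2 replicates, each replicate held plates A and B of 384 wells, and there was no second group to compare them with. All 1536 wells had at least 600 reads in genes and were used. Levels are given as CPM, the reads of a gene divided by all gene reads of the well and scaled to 1000000 reads.

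Lymphatic vessels take up fluid, fats and immune cells from the tissue and return them to the blood. In the skin they begin as blind-ended capillaries and lead into collecting vessels with valves. Prox1 is the transcription factor that sets and keeps lymphatic identity. Lyve1 is a hyaluronan receptor at the surface of LECs, known to be abundant in lymphatic capillaries and low in collecting vessels and valves, and some tissue macrophages also carry it. Pdpn is a mucin-type membrane glycoprotein that fibroblasts and keratinocytes of the skin also make. Mmrn1 is a secreted multimeric matrix glycoprotein, Reln a large secreted matrix glycoprotein, and Ccl21a a chemokine that draws Ccr7-bearing dendritic cells into lymphatic vessels.

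The replicates differed in depth. The plates of replicate 1 held 74739095 and 63091443 gene reads with medians of 182926 and 142086 reads per well, and those of replicate 2 held 31864976 and 35546726 reads with medians of 42540 and 40324. Of the 768 wells of each replicate, 10 in replicate 1 and 298 in replicate 2 had fewer than 20000 reads. No 2 wells held the same counts and no well name was shared between plates. Of the endothelial genes *Cdh5*, *Kdr* and *Pecam1*, 2 or more were detected in every well of replicate 1 but in 584 of the 768 of replicate 2.

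How far a read can be assigned to a gene differed among the 6. Single reads of 50 bases were counted, and of the 821 different stretches of 50 bases in the annotated *Ccl21a* transcript, 588 (71.6%) were also found in transcripts of other genes, against 0 of 2867 for *Lyve1*, 0 of 5866 for *Mmrn1*, 1 of 1813 for *Pdpn*, 84 of 8389 for *Prox1* and 207 of 23781 for *Reln*. The other genes were near-identical copies of *Ccl21a*. The copy *Gm21541* differed from it at 6 of 870 positions, which are G24A, T159A, C269T, C640T, T812C and G856A (counted from 1 at the 5′ end of the *Ccl21a* transcript, the base of *Ccl21a* first). Only T159A and C269T lay in the coding part, positions 76 to 477, and *Ccl21b* and *Gm10591* differed from *Ccl21a* at these same 2 positions. The 50 bases round each are shown because only reads that cover such a position can separate *Ccl21a* from the copy. The differing base is in capitals, and the sequences are those of the GENCODE vM21 transcripts.
Ccl21a, positions 134 to 183: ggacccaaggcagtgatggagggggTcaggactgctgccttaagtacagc
Gm21541, positions 134 to 183: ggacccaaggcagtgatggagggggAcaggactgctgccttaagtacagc
Ccl21a, positions 244 to 293: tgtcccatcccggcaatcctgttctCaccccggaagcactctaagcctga
Gm21541, positions 244 to 293: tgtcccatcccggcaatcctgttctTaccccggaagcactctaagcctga

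Over all wells *Ccl21a* had 21751 reads and *Gm21541* 1181, while *Gm13304*, *Ccl21b* and *Gm10591* had 0 each. Of the 124 wells with a read of *Gm21541*, 114 also had a read of *Ccl21a*. The values given for *Ccl21a* may therefore leave out or include reads of its copies. The authors removed duplicate reads, which limits the reads a short transcript can give. The most reads of *Ccl21a* in 1 well were 397, against the 821 different stretches of its transcript, and the part of this limit in its levels was not tested. *Prox1* overlaps the antisense gene *Prox1os* (473 reads), and *Reln* overlaps *Gm10475* (181 reads) on the opposite strand. The library kit keeps no strand, so reads in such overlaps cannot be told apart.

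The promoters, from 250 bases before to 50 bases after the start in RefSeq (GRCm38.p6, the build of the counts), were read for 5 of the 6 genes, 2 of them for *Prox1*. *Mmrn1* had the highest mean CPM of the 6 over all wells, and *Ccl21a* the highest CPM per length. The part of 1 well in the rank of *Mmrn1* is described with its levels. The promoters of these 2 genes are shown with matches in capitals on either strand to short motifs of factor families known in LECs. These were the SOX core AACAAT, the NR2F site AGGTCA, the GATA core AGATAA and the ETS core CAGGAA. No match overlapped another.
Mmrn1, chr6:60944067-60944366, plus strand: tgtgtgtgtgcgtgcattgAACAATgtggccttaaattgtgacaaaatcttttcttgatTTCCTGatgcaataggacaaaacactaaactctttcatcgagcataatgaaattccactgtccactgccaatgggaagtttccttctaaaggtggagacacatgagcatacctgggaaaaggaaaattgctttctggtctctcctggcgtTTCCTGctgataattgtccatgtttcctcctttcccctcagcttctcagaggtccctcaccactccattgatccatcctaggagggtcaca
Ccl21a, chr4:42773942-42774241, minus strand: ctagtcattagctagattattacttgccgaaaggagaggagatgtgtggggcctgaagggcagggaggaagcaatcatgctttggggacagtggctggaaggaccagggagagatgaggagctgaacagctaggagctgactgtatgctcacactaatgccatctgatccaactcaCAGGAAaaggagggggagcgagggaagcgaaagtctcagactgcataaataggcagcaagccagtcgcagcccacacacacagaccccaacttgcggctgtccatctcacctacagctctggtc

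Among 32851 promoters of this length, 10.7% held the SOX core, 16.3% the NR2F site, 11.2% the GATA core and 30.6% the ETS core. The promoter of *Mmrn1* held 1 SOX core and 2 ETS cores, that of *Ccl21a* 1 ETS core and that of *Pdpn* 1 NR2F site. Those of *Prox1* and *Reln* held none of the 4. The GC content ran from 44.3% for *Mmrn1* to 80.7% for *Reln*.

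All 6 genes were higher in replicate 2 than in replicate 1, and within each replicate most of their CPM came from a minority of wells. For *Ccl21a*, the 14 wells of replicate 1 with 3 or more of the 6 genes at 100 CPM held 82.1% of its CPM. In replicate 2 the 175 such wells held 59.0%. *Lyve1* (ENSMUSG00000030787, mm10 chromosome 7 from 110850607 to 110863239) had mean levels of 34.8 and 4.24 CPM on the plates of replicate 1 and of 369 and 569 CPM on those of replicate 2, so the plates did not overlap. *Mmrn1* (ENSMUSG00000054641, chromosome 6 from 60924976 to 60989378) was at 41.6 and 22.8 CPM in replicate 1 and at 948 and 608 CPM in replicate 2. *Ccl21a* (ENSMUSG00000094686, chromosome 4 from 42772860 to 42773993) was at 35.8 and 21.0 CPM and at 529 and 646 CPM. Taken over replicates, the levels were 244 ± 318 CPM for *Lyve1*, 405 ± 527 CPM for *Mmrn1* and 308 ± 395 CPM for *Ccl21a* (mean ± SD, n = 2 replicates), so for each the spread between replicates was larger than the mean.

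*Reln* (ENSMUSG00000042453, chromosome 5 from 21884454 to 22344702) was at 35.5 and 5.64 CPM on the plates of replicate 1 and at 220 and 321 CPM on those of replicate 2. *Prox1* (ENSMUSG00000010175, chromosome 1 from 190118035 to 190170714) was at 14.0 and 15.3 CPM and at 97.4 and 93.6 CPM, the narrowest range between plates of a replicate. *Pdpn* (ENSMUSG00000028583, chromosome 4 from 143267431 to 143299564) was at 11.7 and 13.9 CPM and at 66.3 and 48.8 CPM. The levels over replicates were 145 ± 177 CPM for *Reln*, 55.1 ± 57.2 CPM for *Prox1* and 35.2 ± 31.7 CPM for *Pdpn* (mean ± SD, n = 2). The ratio of replicate 2 to replicate 1 was lowest for *Pdpn* (4.50) and *Prox1* (6.52) and higher for *Reln* (13.1), *Ccl21a* (20.6), *Lyve1* (24) and *Mmrn1* (24.2). The sizes of these ratios and the order of the last 4 depended on the scale and on 1 plate. In CPM of reads summed over wells the ratio was highest for *Lyve1* (46.7), with scran size factors it was highest for *Mmrn1* (97.8), *Ccl21a* (72.6) and *Lyve1* (54.3), and without plate A of replicate 1 it was highest for *Lyve1* (111) and *Reln* (47.9). With scran factors it was 23.7 for *Reln*, 15.7 for *Prox1* and 9.98 for *Pdpn*, and *Pdpn* and *Prox1* had the lowest ratios in each of these cases. A single well set part of the level of *Mmrn1*. In that well of plate A of replicate 2, 982 of 5911 reads were *Mmrn1* (166131 CPM), the other 5 genes together had 1 read, and without it the plate mean fell from 948 to 516 CPM. Without this well the level of *Mmrn1* over replicates was 297 CPM, below that of *Ccl21a* (308 CPM), and its ratio of replicate 2 to replicate 1 was 17.5, below those of *Ccl21a* and *Lyve1*. In wells of at least 20000 reads, which also leave out this well, *Mmrn1* was highest at 389 CPM, with *Lyve1* at 339 CPM and *Ccl21a* at 273 CPM. In CPM of reads summed over wells *Mmrn1* was highest too, at 326 CPM. The order of *Ccl21a* and *Lyve1* also depended on the scale, since in CPM of reads summed over wells *Ccl21a* was at 153 CPM and *Lyve1* at 238 CPM.

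Per kilobase of exon, which allows genes to be set against each other, the mean level over replicates ran from *Ccl21a* (354 CPM per kb) through *Lyve1* (83.7), *Mmrn1* (69.0), *Pdpn* (19.4) and *Prox1* (6.56) to *Reln* (6.12). In replicate 2 the order was the same, from 675 to 11.4 CPM per kb. In replicate 1 *Ccl21a* was also highest (32.7 CPM per kb), but *Pdpn* (7.04) stood above *Lyve1* (6.68) and *Mmrn1* (5.48). With scran size factors, and also without plate B of replicate 2, *Mmrn1* stood above *Lyve1* (249 against 181 and 83.5 against 66.5 CPM per kb), and *Reln* stood above *Prox1* without plate A of replicate 2 and in wells of at least 20000 reads. No neighbours in this order differed beyond the spread between the 2 replicates, and the level of *Ccl21a* per length is subject to the shared reads described above.

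**Figure D1:**
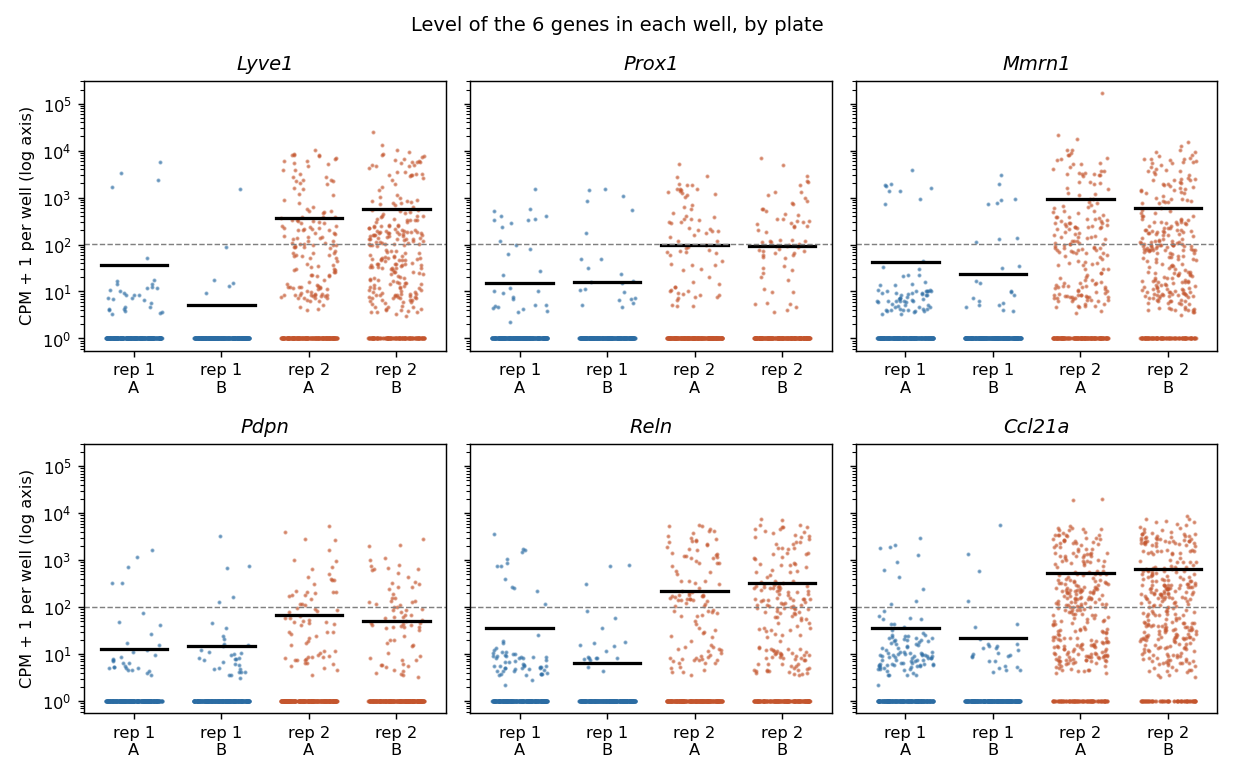
Each point is 1 well, plotted as CPM + 1 on a log axis against replicate and plate, with wells without a read at 1; black lines are plate means and the dashed line is 100 CPM. Wells of replicate 1 form a sparse upper group over a large group without reads, and plates of replicate 2 hold more wells with reads, among them 1 well at 166131 CPM of *Mmrn1*, far above the next of its plate at 21854 CPM.

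The replicates were also compared over all genes, with reads summed per plate. In such sums, fewer wells with a gene and fewer transcripts per well cannot be told apart. The edgeR quasi-likelihood test with Benjamini-Hochberg adjustment called 0 of 19522 genes (0.0%), 3320 (17.0%) passed at an unadjusted p of 0.05, and DESeq2 called 1930 (9.89%). The 6 genes had been chosen with this difference known, so their values are listed and not read as a test. The log2 change from replicate 1 to replicate 2 was 5.44 (SE 1.41, adjusted p = 0.184) for *Lyve1*, 4.47 (SE 0.39, adjusted p = 0.0832) for *Mmrn1*, 4.32 (SE 0.75, adjusted p = 0.154) for *Ccl21a*, 4.10 (SE 1.07, adjusted p = 0.188) for *Reln*, 3.23 (SE 0.47, adjusted p = 0.139) for *Prox1* and 2.32 (SE 0.43, adjusted p = 0.156) for *Pdpn* by edgeR. Changes as high or higher were found in 0.671% of genes for *Lyve1* and in 5.63% for *Pdpn*, and the median over all genes was 0.05. By DESeq2 all 6 had an adjusted p under the threshold (9.44e-37 for *Mmrn1* to 0.0212 for *Reln*), as they did by edgeR with thinned wells (0.00729 for *Mmrn1* to 0.0476 for *Lyve1*), while without the filter on low counts *Prox1*, *Mmrn1* and *Ccl21a* did. *Prox1* and *Mmrn1* did so too when either plate of replicate 2 was left out. The labels describe a replicate as a pool spread over 2 plates and do not say whether the replicates were separate pools, so p-values and the SD over replicates measure a spread that may be technical.

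The share of wells with a read of each gene moved in the same way. On the plates of replicate 1, 26.8% and 7.29% of wells had *Ccl21a*, and on those of replicate 2, 72.1% and 79.9%. *Lyve1* was found in 8.33% and 1.56% and in 38% and 60.4%, and *Mmrn1* in 18.2% and 6.25% and in 46.9% and 65.9%. The range was smaller for *Prox1*, detected in 6.90% of replicate 1 (exact binomial 95% interval 5.21 to 8.93) against 18% in replicate 2 (15.3 to 20.9). *Pdpn* had a read in 8.46% (6.59 to 10.7) and 18.9% (16.2 to 21.8) and *Reln* in 10.9% (8.82 to 13.4) and 36.1% (32.7 to 39.6). These intervals cover counting error only.

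Many of these wells held only 1 or 2 reads of the gene, from 42.0% of the wells with *Prox1* in replicate 2 to 81.6% of those with *Lyve1* in replicate 1. The shares were therefore set against wells that should lack LEC genes. Replicate 2 held 47 wells with *Pdgfrb*, *Rgs5* or *Kcnj8*, genes of mural cells, at 300 CPM or more and with the endothelial gene *Pecam1* under 100 CPM, and their median depth was 159199 reads. In them *Ccl21a* had a read in 61.7%, *Lyve1* in 48.9%, *Mmrn1* in 44.7%, *Reln* in 23.4%, *Pdpn* in 14.9% and *Prox1* in 10.6%. In the 10 such wells of replicate 1 there was no read of any of the 6, which allows a share of up to 30.0% each. Over all wells of replicate 2 the share for the 5 genes other than *Ccl21a* lay within the exact binomial 95% interval of the mural wells (49.2% for *Lyve1*, with an interval of 34.1 to 63.9), and such shares are not read as expression. The share for *Ccl21a*, 76.0%, lay just above its interval of 46.4 to 75.5.

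With every well of at least 20000 reads thinned to 20000, these shares parted. In replicate 2, 470 wells had enough reads, and *Ccl21a* was then found in 43.4% (against 26.1% of 46 mural wells), *Mmrn1* in 31.5% (2.17%), *Reln* in 28.5% (6.52%), *Lyve1* in 26.8% (6.52%), *Prox1* in 18.5% (2.17%) and *Pdpn* in 16.4% (2.17%). In the 758 wells of replicate 1 the thinned shares were 5.01% for *Ccl21a*, 3.56% for *Reln*, 3.30% for *Mmrn1*, 3.03% for *Prox1*, 2.24% for *Pdpn* and 1.45% for *Lyve1*. For each gene the 2 plates of replicate 1 were below both plates of replicate 2 after thinning.

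A limit of 100 CPM was used for a well to count as holding a gene, and of the 47 mural wells of replicate 2, 3 reached it for *Ccl21a*, 1 for *Mmrn1*, 1 for *Pdpn* and 0 for the others. *Ccl21a* was at 100 CPM or more in 15 and 317 wells of replicates 1 and 2, *Mmrn1* in 18 and 205, *Lyve1* in 5 and 185, *Reln* in 16 and 151, *Prox1* in 17 and 74 and *Pdpn* in 10 and 56. In replicate 2 this limit can be reached by 1 or 2 reads where a well is shallow. Of the 115 wells under 20000 reads that reached it for *Lyve1*, 85 did so with 1 or 2 reads, and of the 111 for *Mmrn1*, 77 did. None of the deeper wells of either replicate did so for any of the 6 genes.

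The 6 genes tended to be found in the same wells. In replicate 2, of the 74 wells with *Prox1*, 82.4% (exact binomial 95% interval 71.8 to 90.3) also held *Ccl21a*, 78.4% *Reln*, 77.0% *Mmrn1*, 58.1% *Lyve1* and 27.0% *Pdpn*, while of the 694 wells without *Prox1*, 36.9% held *Ccl21a*, 13.4% *Reln*, 21.3% *Mmrn1*, 20.5% *Lyve1* and 5.19% *Pdpn*. In replicate 1, of the 17 wells with *Prox1*, 64.7% held *Mmrn1* and as many *Reln*, 52.9% *Ccl21a*, 35.3% *Pdpn* and 17.6% *Lyve1*, against at most 0.932% of the 751 wells without it. All 5 *Lyve1* wells of replicate 1 held *Ccl21a*, 4 held *Mmrn1*, 4 *Reln*, 3 *Prox1* and 2 *Pdpn*.

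**Figure D2:**
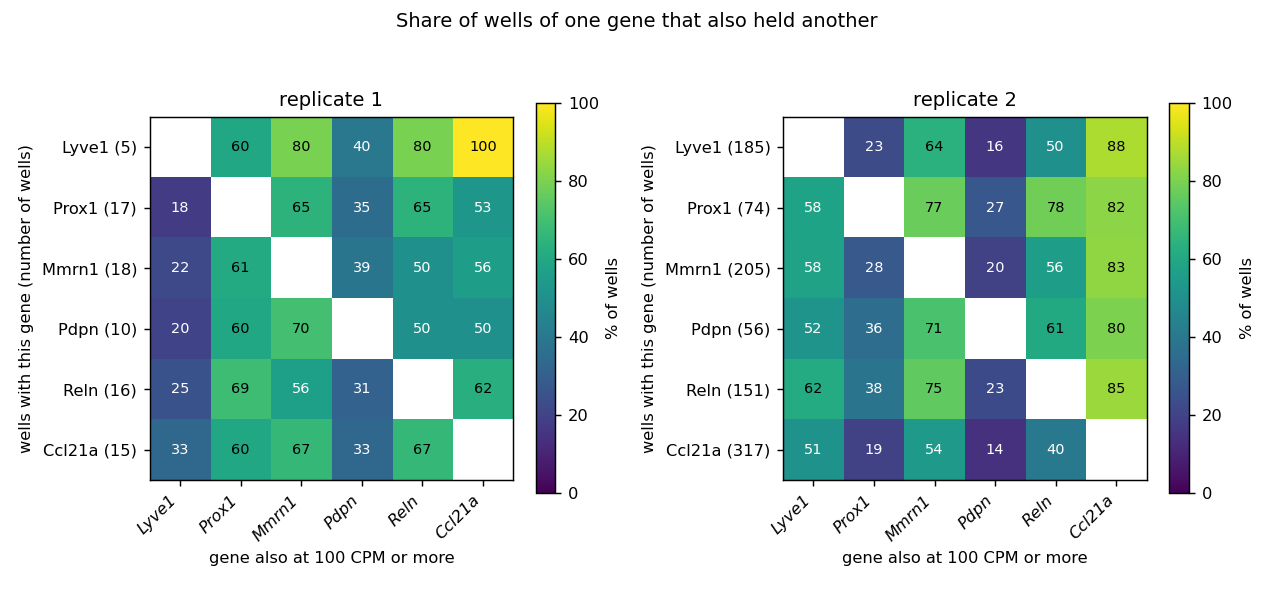
Each cell gives the percentage of wells holding the gene of the row (number of wells in brackets) that also held the gene of the column, at 100 CPM or more, for replicate 1 (left) and replicate 2 (right). The column of *Ccl21a* is at 50 to 100 percent in replicate 1 and 80.4 to 87.6 percent in replicate 2, and the column of *Lyve1* is at 17.6 to 33.3 percent in replicate 1 and 51.1 to 61.6 percent in replicate 2.

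Correlations of log2(CPM + 1) over wells are given as a description, since the wells of a replicate share plates and their depths differ. In wells of at least 20000 reads they ran from 0.20 (*Lyve1* with *Pdpn*) to 0.64 (*Prox1* with *Mmrn1*) over 758 wells of replicate 1 and from 0.44 (*Prox1* with *Pdpn*) to 0.78 (*Mmrn1* with *Reln*) over 470 wells of replicate 2. All 15 pairs were positive in both replicates. The genes whose pattern over the 768 wells of each replicate was most like that of a member, by the lower of the 2 correlations among 10345 genes with a read in at least 5% of wells of each replicate, were mostly other members. *Lyve1* had a read in only 4.95% of the wells of replicate 1, so it was not among the 10345 and could not be listed for another member. The others were *Maf*, which was among the 5 most alike for all 6 genes, *Pard6g* for *Prox1*, *Mmrn1* and *Ccl21a*, *Gpm6a* for *Prox1*, *Pdpn* and *Reln*, and *Ntn1* for *Pdpn*. *Maf* encodes a transcription factor, Pard6g a cell polarity protein, Gpm6a a membrane glycoprotein and Ntn1 a secreted guidance factor. For *Maf* the lower correlation ran from 0.32 with *Lyve1* to 0.49 with *Mmrn1*.

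Most wells held none of the 6 genes or 1 of them, and a smaller number held most. In replicate 1, 736 wells held none, 12 held 1, 6 held 2, 6 held 3, 2 held 4, 5 held 5 and 1 held all 6. In replicate 2, 382 held none, 123 held 1, 88 held 2, 69 held 3, 58 held 4, 38 held 5 and 10 held all 6. Of the 123 with a single gene, 76 had *Ccl21a*, 18 *Mmrn1*, 13 *Lyve1*, 8 *Reln*, 4 *Prox1* and 4 *Pdpn*.

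**Figure D3:**
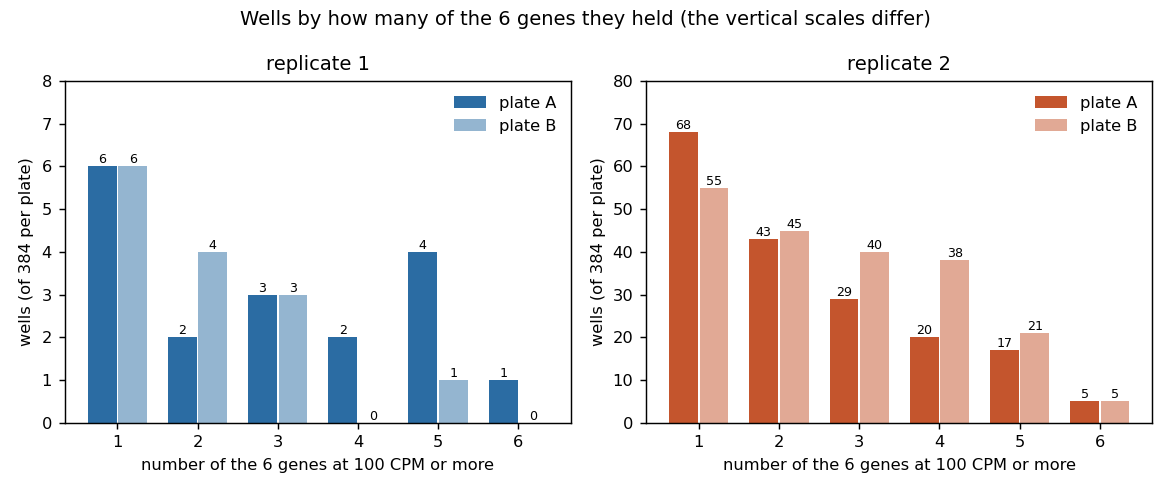
Bars give the number of wells, of 384 per plate, by how many of the 6 genes were at 100 CPM or more, for replicate 1 (left) and replicate 2 (right), whose vertical scales differ. Plates of replicate 2 fall from 68 and 55 wells with 1 gene to 5 and 5 wells with all 6.

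Wells with 3 or more of the 6 genes are called LEC gene wells here. There were 14 in replicate 1 (10 on plate A and 4 on plate B), 1.82% of wells (exact binomial 95% interval 1.0 to 3.04), and 175 in replicate 2 (71 and 104), 22.8% (19.9 to 25.9). Of those of replicate 2, 82 had fewer than 20000 reads, and of the wells with at least that depth 93 of 470, or 19.8% (16.3 to 23.7), held 3 or more, against 14 of 758, or 1.85% (1.01 to 3.08), in replicate 1. Replicate 2 also held 211 wells with 1 or 2 of the genes, whose median depth was 10079 reads with 23.8% of reads from mitochondrial genes and 18.1% of reads from spike-ins. In the LEC gene wells of that replicate these medians were 23856 reads, 7.83% and 5.57%, and in the wells with none of the genes 122206 reads, 2.95% and 1.20%. The part of depth and of these shares in the numbers of wells was not tested beyond the values given. The wells just outside the limit, with 2 genes, were 6 and 88, of which 2 and 73 had fewer than 20000 reads.

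What the LEC gene wells held differed by gene. Of the 14 in replicate 1 and the 175 in replicate 2, 11 and 155 had *Mmrn1* at 100 CPM or more, and 11 and 165 had *Ccl21a*. *Reln* was there in 12 and 127 wells, *Prox1* in 11 and 64 and *Pdpn* in 7 and 46. *Lyve1* was in 5 of 14 and in 132 of 175. In the 93 deeper wells of replicate 2, the counts were 88 for *Mmrn1*, 87 for *Ccl21a*, 83 for *Reln*, 65 for *Lyve1*, 54 for *Prox1* and 34 for *Pdpn*. Their median levels were 3052 CPM for *Mmrn1*, 2396 CPM for *Lyve1*, 2284 CPM for *Ccl21a*, 1284 CPM for *Reln*, 196 CPM for *Prox1* and 41.9 CPM for *Pdpn*. The highest level was 17978 CPM, of *Mmrn1*, and the lowest was 0 for every gene but *Mmrn1*, which had a read in all 93 wells.

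The combinations seen were many. Replicate 2 held 30 different sets of genes among its 175 wells, of which the most frequent were *Lyve1*, *Mmrn1*, *Reln* and *Ccl21a* (34 wells), *Lyve1*, *Mmrn1* and *Ccl21a* (29 wells) and the former set with *Prox1* (24 wells). In replicate 1 the 14 wells held 11 sets, and the most frequent had every gene but *Lyve1* (3 wells). Of all reads of *Lyve1*, the LEC gene wells held 97.1% in replicate 1 and 97.0% in replicate 2, the highest share of reads of the 6. For *Prox1* these shares were 69.4% and 85.1%, and for *Ccl21a* 84.8% and 83.5%. As shares of CPM in replicate 2, the order differed. *Reln* was at 93.8%, *Pdpn* at 91.1%, *Lyve1* at 88.4%, *Prox1* at 84.8%, *Mmrn1* at 64.5% and *Ccl21a* at 59.0%. The wells were chosen by these same genes, so part of each share is set by the rule.

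**Figure D4:**
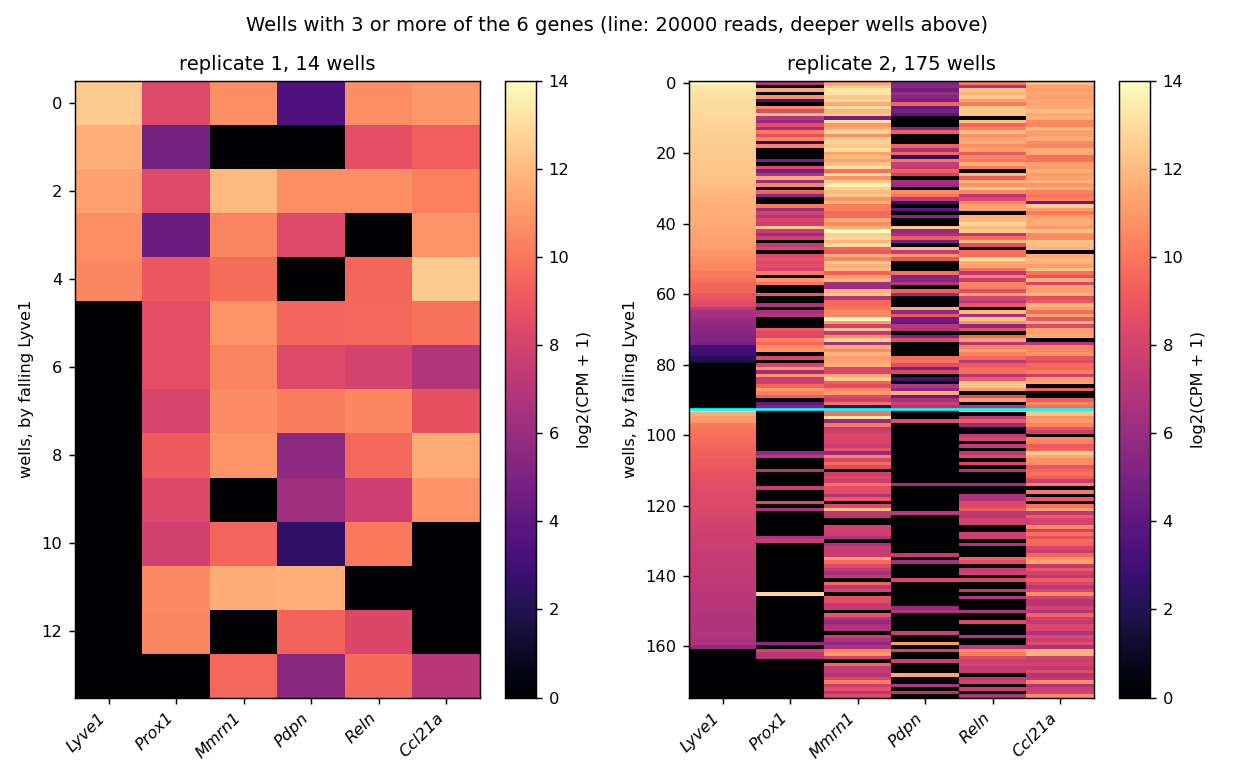
Rows are the 14 LEC gene wells of replicate 1 (left) and the 175 of replicate 2 (right), columns the 6 genes, and the colour log2(CPM + 1) from 0 to 14; rows are ordered by falling *Lyve1*, and on the right the 93 wells of at least 20000 reads stand above the line. A block of wells without *Lyve1* but with other genes is seen at the foot of each part.

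The cells had been sorted as Lyve1-, and the wells divide by the *Lyve1* transcript. In replicate 1, 5 LEC gene wells had *Lyve1* at 1494 to 5723 CPM with a median of 2400 CPM, and the other 9 had no read of it. In replicate 2, 132 wells reached 100 CPM, with a median of 840 CPM, and 43 did not, of which 16 had a read. Among deeper wells of replicate 2 the division was 65 and 28. The remaining genes were present on both sides. In the 9 wells of replicate 1 without *Lyve1*, *Mmrn1* had a median of 1390 CPM, *Reln* 765 CPM, *Prox1* 405 CPM, *Pdpn* 330 CPM and *Ccl21a* 132 CPM, against 1354, 747, 339, 10.3 and 1887 CPM in the 5 with it. In the deeper wells of replicate 2, *Ccl21a* had a median of 832 CPM in the 28 wells with low *Lyve1* and of 2465 CPM in the 65 others, and *Prox1* of 295 and 125 CPM. The medians of *Mmrn1* were 1580 and 3653 CPM, those of *Reln* 798 and 1410 CPM and those of *Pdpn* 48.9 and 41.5 CPM. The difference in *Pdpn* seen in replicate 1 was thus not found there.

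*Cldn11* and *Cp*, named here after their values had been seen, were set against this division. Cldn11 is a tight junction protein and Cp the copper-binding ferroxidase ceruloplasmin. In replicate 1, *Cldn11* was detected in 7 of the 9 LEC gene wells without *Lyve1*, with a median of 1028 CPM, and in 2 of the 5 with it. In the deeper LEC gene wells of replicate 2 it had a read in 10 of 28 wells with low *Lyve1* and in 5 of 65 others. *Cp* had a median of 1607 CPM against 82.6 CPM in replicate 1 and of 1005 CPM against 553 CPM in the deeper wells of replicate 2. *Foxc2*, a transcription factor of lymphatic valves and collecting vessels, had a read in 3 of 9 and 1 of 5 wells and in 7 of 28 and 10 of 65 wells. Wells are not replicates and the division was made on these data, so no test was made.

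Markers of other cells that carry *Lyve1* or *Pdpn* were looked at in the same wells. *Ptprc*, which encodes CD45 and marks all leukocytes, had a read in 0 of 14 and 1 of 175 LEC gene wells, and *C1qa*, a complement gene of macrophages, in 0 of 189. *Mrc1*, a mannose receptor of macrophages and some LECs, had a read in 2 of 14 and 30 of 175, against 13 of 754 and 20 of 593 other wells. The 9 macrophage and leukocyte markers summed to a median of 0 CPM and means of 102 and 98.7 CPM in the LEC gene wells of replicates 1 and 2, with 7 and 3 of the 9 genes at 0, against means of 24.6 and 71.2 CPM in the other wells. Most of the means in LEC gene wells came from *Mrc1*, at 107 and 0 CPM on the plates of replicate 1 and 66.4 and 111 CPM on those of replicate 2. On plate B of replicate 1 *Lyz2* was at 90.9 CPM. The other tested markers of this list had negative log2 changes in the test described below, and none of the list was called. The fibroblast markers, 6 genes, summed to a mean of 289 CPM in the LEC gene wells and 1135 CPM in the other wells of replicate 1, and to 1211 and 913 CPM in replicate 2. The direction in replicate 2 differed between its plates, with 308 and 834 CPM on plate A and 1828 and 1002 CPM on plate B, where *Dcn* and *Col1a1* had means of 1165 and 431 CPM in the LEC gene wells. In reads summed over the wells of plate B, *Dcn* was lower in LEC gene wells, at 151 against 185 CPM. *Flt1*, a BEC receptor, was at 100 CPM or more in 1 of 14 and 28 of 175. In a shallow well few reads reach this limit, for example 289 CPM in a well of 3456 reads on plate A of replicate 2. As a mean per well, *Flt1* was at 27.4 and 30.9 CPM in the LEC gene wells of replicate 1 and at 53.7 and 85.3 CPM in those of replicate 2. The other wells were at 568 and 580 CPM and at 405 and 383 CPM. Doublets were not called.

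To see which other genes went with the 6, reads were summed per plate over LEC gene wells and over all other wells, and compared with the plate as a block. The edgeR quasi-likelihood test with Benjamini-Hochberg adjustment called 321 of 19451 genes (1.65%), of which 138 were higher in LEC gene wells (0.709%), the 6 genes that chose the wells included, and 183 were lower (0.941%). An unadjusted p of 0.05 was passed by 4414 genes (22.7%), and DESeq2 called 2514 (12.9%). The median log2 change of all genes was -1.08, and the changes below are to be read beside it. Of 40 genes in 4 lists of lymphatic biology, 38 could be tested, 12 were higher and 0 lower, the median change was 1.72, and 22 were higher in summed reads in all 4 plates, against 4.66% of all genes tested. Of these 22, *Sox18*, *Itga9* and *Piezo1* were not higher on all 4 plates as a mean per well. The lists contain no member, and the list genes named here and below that did not pass the test were picked for mention after their values had been seen.

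Among the 9 regulators, 2 were higher. The transcription factor genes *Maf*, which acts in lymphatic patterning, rose by a log2 change of 6.20 (SE 0.76, adjusted p = 0.000441 by edgeR) and *Tbx1* by 4.55 (SE 0.90, adjusted p = 0.0186). The summed level of *Maf* in the 4 plates was 557, 272, 402 and 584 CPM in LEC gene wells and 1.60, 3.85, 5.93 and 30.6 CPM in the others, without overlap. *Foxc2* did not pass (3.79, adjusted p = 0.0579), nor did *Nfatc1* (1.85, adjusted p = 0.0738) or *Nr2f2*, which acts with Prox1 (1.47, adjusted p = 0.132). *Sox18*, a known activator of *Prox1*, was at 632 to 1130 CPM in LEC gene wells and 544 to 828 CPM in the others in summed reads, and did not pass (0.23, SE 0.24, adjusted p = 0.643). As a mean per well *Sox18* was lower in LEC gene wells on all 4 plates, at 734, 595, 307 and 343 CPM against 786, 889, 383 and 443 CPM.

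Among the 10 receptors, 1 was higher. *Flt4*, which encodes VEGFR3, the main lymphangiogenic receptor, was at 716, 425, 1178 and 1388 CPM in the LEC gene wells of the 4 plates and at 27.5, 34.7, 62.2 and 42.2 CPM in the others, a log2 change of 4.40 (SE 0.39, adjusted p = 1.71e-05 by edgeR). *Itga9*, an integrin of lymphatic valves (2.52, adjusted p = 0.0757), *Nrp2*, a co-receptor for Vegfc (1.20, adjusted p = 0.284), and *Ackr2*, a chemokine scavenger (5.23, adjusted p = 0.107), did not pass. The receptors *Tie1* and *Tek* had changes of 1.11 and -0.42 (adjusted p = 0.0738 and 0.612).

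Of the 15 effector and surface genes tested, 9 were higher. *Fgl2*, a fibrinogen-like protein, was at 912 to 2310 CPM in LEC gene wells and 45 to 107 CPM in the others (log2 change 4.52, SE 0.28, adjusted p = 8.61e-07 by edgeR). *Sema3d*, a semaphorin, had a log2 change of 6.86 (adjusted p = 0.000294), and *Il7*, a lymphocyte survival cytokine made by LECs, one of 5.09 (adjusted p = 0.00957). *Clca3a1*, a LEC surface protein (4.43, adjusted p = 0.00323), *Cldn11* (4.19, adjusted p = 0.00952) and the lipopolysaccharide-binding protein *Lbp* (4.19, adjusted p = 1.1e-05) were also higher. None of the 4 ligands and processing genes passed. *Vegfc*, the ligand of Flt4, was at 0.558 to 2.25 CPM in LEC gene wells and 18.3 to 56.1 CPM in the others (adjusted p = 0.0708). Of the 12 calls in the lymphatic lists, those of *Tbx1*, *Il7*, *Cldn11* and *Thy1* were lost without plate A of replicate 1, those of *Tbx1* and *Cldn11* without replicate 1, and those of *Tbx1*, *Il7* and *Thy1* without replicate 2. That of *Thy1* was also lost without either plate of replicate 2, without a filter on low counts and with a limit of 10 CPM, and that of *Cldn11* with at least 4 genes per well. *Ccl21b* had no read, and *Ccl21c* was not found among the genes.

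**Figure D5:**
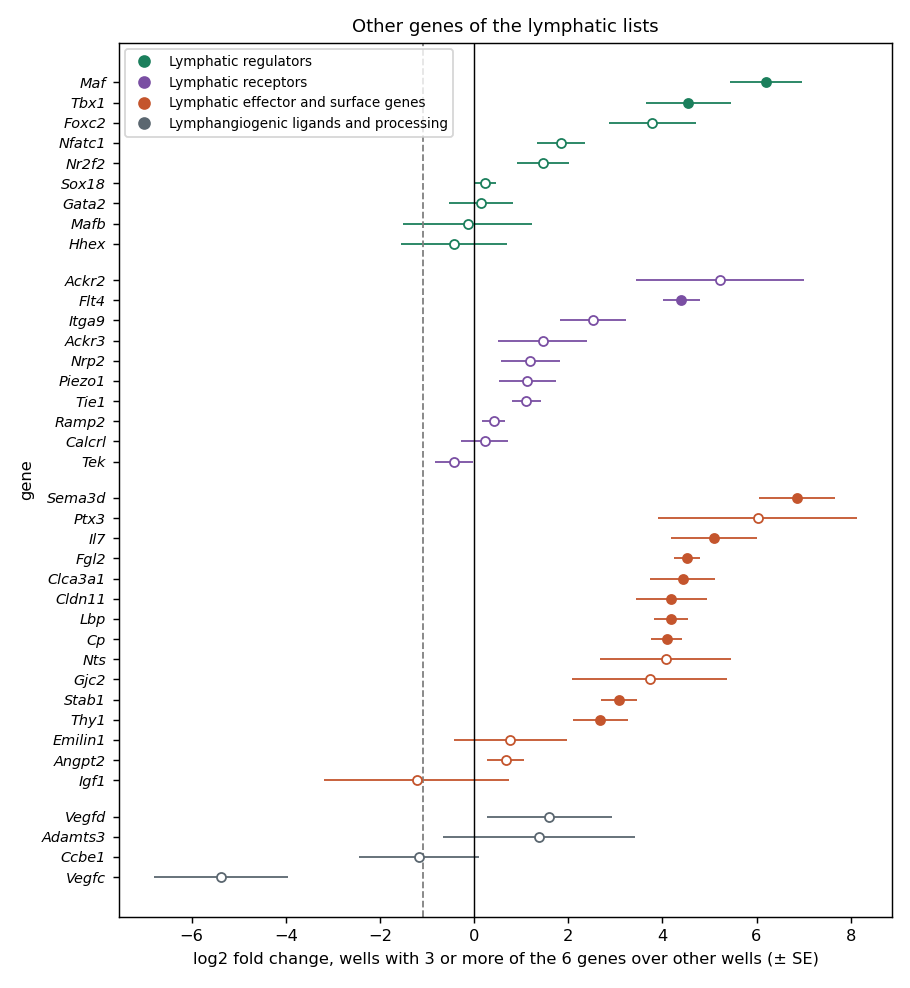
Points give the log2 change between LEC gene wells and other wells (± SE) from sums of 4 plates for the 38 tested genes of the 4 lists; filled points passed an adjusted p of 0.05, the solid line is 0 and the dashed line the median of all genes, -1.08. The 12 filled points lie between 2.68 and 6.86.

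The BEC markers went the other way. Of 12, 10 were lower in LEC gene wells, of which *Plvap* and *Rgcc* were no longer called with DESeq2 size factors, and 2, *Emcn* (0.06) and *Nos3* (0.33), did not pass. *Flt1*, a Vegf receptor, fell by 4.10 on the log2 scale (adjusted p = 0.000471 by edgeR), while *Vwf*, the von Willebrand factor, fell by 5.38 (adjusted p = 3.71e-05) and *Cd34* fell by 4.35 (adjusted p = 5.4e-06). Of 6 pan-endothelial genes, the junction gene *Cldn5* was higher in summed reads (1.27, SE 0.20, adjusted p = 0.00291), *Pecam1* fell by 1.62 and *Esam* fell by 2.81, and *Cdh5*, *Kdr* and *Egfl7* did not pass. As a mean per well, *Cldn5* was at 3906, 2982, 974 and 838 CPM in the LEC gene wells of the 4 plates and at 1099, 1028, 793 and 899 CPM in the others, so it was lower on plate B of replicate 2. The calls of *Cldn5* and *Pecam1* were lost with DESeq2 (adjusted p = 0.106 and 0.129) and without replicate 1 (adjusted p = 0.151 and 0.0876 by edgeR). That of *Cldn5* was also lost with at least 4 genes per well and with a limit of 10 CPM for holding a gene (adjusted p = 0.167 and 0.071 by edgeR). Of 11 mural markers 10 were lower, of 6 fibroblast markers 1, *Col1a2*, and of the 3 keratinocyte, 8 leukocyte and 3 Schwann cell markers tested 0. With a limit of 10 CPM for holding a gene, only 3 of the 10 BEC calls, 3 of the 10 mural calls and 0 of the 1 fibroblast call were kept, and those of *Flt1* and *Vwf* were among the lost. Without replicate 2, 8 BEC and 4 mural calls were kept, and without replicate 1, 8 BEC and 8 mural calls. The call of *Col1a2* was lost in both cases. No called list gene turned direction in summed reads in any of these settings. Whether the difference between LEC gene wells and other wells itself differed between replicates was tested in the same way. Of 19451 genes 18 passed (0.0925%), 11 with a higher change in replicate 2 (0.0566%) and 7 with a lower (0.036%), and an unadjusted p of 0.05 was passed by 945 (4.86%). None of the 38 list genes was among the 18, while *Lyve1*, *Mmrn1* and *Ccl21a*, which had helped to choose the wells, were, with changes of -2.59, -2.06 and -3.40 in replicate 2 relative to replicate 1, given as a description.

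Outside the lists, the 5 genes with the largest rise among those higher in all 4 plates were *Duox2*, *Ripor3*, *Cyfip2*, *Slc45a3* and *Gm10475*, with log2 changes of 8.86, 8.25, 7.73, 7.47 and 7.33 (adjusted p = 0.00646, 0.00573, 0.0131, 0.000287 and 0.0427 by edgeR). *Duox2*, which encodes a hydrogen peroxide-producing oxidase, was at 126 to 160 CPM in LEC gene wells and at 0.0314 to 5.60 CPM in the others. *Cyfip2* was uneven, at 0.743, 687, 166 and 149 CPM in the LEC gene wells of the 4 plates and at 0.294, 3.47, 0.232 and 0.214 CPM in the others. *Gm10475* overlaps *Reln* and shares 152 of the stretches of 50 bases with it. The 5 genes with the largest fall were *Adra2a*, *Carmn*, *Gpr19*, *Adap2* and *Gpr1*, each at 0 to 0.372 CPM in LEC gene wells of every plate. *Adra2a*, an adrenergic receptor, was at 16.5 to 44.2 CPM in the other wells and *Carmn*, a smooth muscle non-coding RNA, at 7.78 to 23.1 CPM. The calls of these 5 falling genes were lost whichever plate was left out, and those of *Cyfip2* and *Gm10475* without plate B of replicate 1. Nor were all calls of the 5 rising genes kept without plate A of replicate 1 or without plate B of replicate 2. The same held without replicate 1 and without replicate 2.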

How the data were processed

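Single cells had been sorted into 4 plates and sequenced by Smart-seq2, a full-length method without molecular identifiers. Per the labels and the study's methods, the authors mapped reads to mm10 with TopHat2 (2.1.1), took out duplicates by SAMtools (0.1.18) and assigned reads to genes by featureCounts of Subread (1.4.6-p5). The deposited tables hold these unnormalized counts. The annotation release was not given in the sources used here.

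All wells with at least 600 gene reads were kept, spike-ins were left out of the totals, and doublets were not called. CPM were computed per well, and log2 values used a pseudocount of 1. A well held a gene at 100 CPM or more, and LEC gene wells held 3 or more of the 6. Counts were summed per plate and kind of well (8 sums, plate as block, 3 residual degrees of freedom) or per plate (4 sums, 2 residual degrees of freedom). A gene entered the edgeR test if 2 or more sums reached 10 counts (version 4.0.16, TMM, quasi-likelihood, Benjamini-Hochberg, threshold 0.05), after a check on simulated counts. DESeq2 (1.42.0), limma (3.58.1) and scran (1.30.0) served as alternatives, in R 4.3.3, and other values were computed in Python 3.11.15. Shares have exact binomial 95% intervals, floors are 3 counts, and for shares across depths wells were thinned to 20000 reads. Plates held 31864976 to 74739095 gene reads.

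The members, lists and tests were chosen with earlier results of these data known. Named were the 6 genes, at most 6 called genes per list with their change, 5 further genes in each direction by size of change among those changed alike in all 4 plates, and 5 genes by likeness for each member. Further list genes were named where their calls were lost or where they bore on a result. Coordinates and transcript sequences are those of GENCODE vM21, which held 46005 of the 46517 gene IDs.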

Additional observations from a re-analysis of the deposited data

Results flagged for a closer look

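The difference between LEC gene wells and other wells was itself compared between replicates, and 18 of 19451 genes (0.0925%) passed the edgeR interaction test with Benjamini-Hochberg adjustment, while 945 (4.86%) passed at an unadjusted p of 0.05. Besides *Lyve1*, *Mmrn1* and *Ccl21a*, which had helped to choose the wells, 2 of the 12 BEC markers were among them. *Aqp1*, a water channel, was at 192 and 76.5 CPM in the LEC gene wells of the plates of replicate 1 and at 391 and 261 CPM in those of replicate 2, against 1823 and 1953 CPM and 1165 and 962 CPM in the other wells, and its log2 change was higher by 2.22 in replicate 2 (adjusted p = 0.04 by edgeR). *Plvap*, a component of endothelial fenestrae, was at 875 and 1238 CPM and at 393 and 355 CPM in LEC gene wells, against 1899 and 2093 CPM and 2407 and 1974 CPM in the others, and its log2 change differed by -1.61 (adjusted p = 0.04). These are summed reads, in which the plates of the replicates did not overlap for either gene in LEC gene wells. As a mean per well, *Aqp1* was at 263 and 105 CPM in replicate 1 and at 436 and 226 CPM in replicate 2, which overlap. The LEC gene wells of replicate 1 numbered 14.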

How the results depend on the processing

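Between LEC gene wells and other wells, 321 genes were called (138 higher, 183 lower). With DESeq2 the number was 2514 (439 higher, 2075 lower), without the plate block 879, on sums per replicate with the replicate block 493, with at least 4 genes per well 2332, with a limit of 10 CPM 160 and with wells thinned 650. More genes were higher than lower with DESeq2 size factors in edgeR (151 and 138), at 10 CPM (95 and 65), without plate A of replicate 2 (153 and 140), without replicate 1 (110 and 86) and without replicate 2 (87 and 63). Leaving out a plate or a replicate gave 150 to 298, with 196 without replicate 1 and 150 without replicate 2. Between replicates, 0 genes were called, against 1930 with DESeq2, 176 without a filter on low counts, 259 with wells thinned and 0 to 456 when a plate was left out (456 without plate A and 96 without plate B of replicate 2). With the plate letter as a replicate block the number was 0; the letters only number plates. The number of LEC gene wells, 189, was 114 with at least 4 genes, 304 at 10 CPM, 116 at 300 CPM, 417 with any read, 114 after thinning and, under alternatives chosen after seeing the data, 109 with at least 10 reads per gene and 107 in wells of at least 20000 reads. With scran factors the mean levels were 118 CPM for *Prox1*, 1463 CPM for *Mmrn1*, 1090 CPM for *Ccl21a*, 528 CPM for *Lyve1*, 243 CPM for *Reln* and 62.7 CPM for *Pdpn*, each over 1.5 times that in the report. The share of wells with *Pdpn* was 4.30% at 100 CPM against 13.7% with a read. Those of the other genes fell too. At 100 CPM they were 12.4% for *Lyve1*, 5.92% for *Prox1*, 14.5% for *Mmrn1*, 10.9% for *Reln* and 21.6% for *Ccl21a*. With a read they were 27.1%, 12.4%, 34.3%, 23.5% and 46.5%. Among *Prox1* wells, *Pdpn* was found in 31.2% (mean of the replicates), in 45% at 10 CPM, 42.3% with any read and 41.5% after thinning, and its share was higher in replicate 1 at 100 CPM (35.3% against 27.0%) but lower there with any read (39.6% against 44.9%) and after thinning (34.8% against 48.3%), while *Reln* was found in 71.5% and, with any read, 56.7%. The causes were not tested. As a mean per well, chosen after seeing the data, the called list genes other than *Cldn5* kept their direction on all 4 plates. The depth of replicate 2 limits what its 298 wells under 20000 reads can show.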
